A study of Mus musculus with 4 samples.

Results

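The semaphorin, Eph-ephrin and Slit-Robo guidance genes were examined in cells sorted from chimeric embryonic mouse kidneys. Members were the genes whose symbol in the array annotation names a semaphorin of class 3 to 7, a plexin, a neuropilin, an ephrin, an Eph receptor, a Slit or a Robo. This gave 59 genes with 136 probe sets, among 18194 genes in all, and the probe set with the highest log2 signal over the 4 arrays stood for its gene. The members comprised 20 semaphorins, 2 neuropilins, 9 plexins, 8 ephrins, 13 Eph receptors, 3 Slits and 4 Robos.

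Guidance proteins steer growing axons, vessels and epithelial buds by repelling or attracting the cells that carry their receptors. Secreted class 3 semaphorins mostly act through neuropilins paired with plexins, whereas membrane-bound semaphorins bind plexins directly. Ephrins are membrane-bound ligands of the Eph receptor tyrosine kinases and signal at contacts between cells, and Slits are secreted ligands of Robo receptors. In the mouse kidney, Slit2 and Robo2 are known for limiting the outgrowth of the ureteric bud to a single site, and semaphorin and ephrin signals take part in the patterning of its vessels.

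The cells labelled Tfrc-null were GFP-positive and derived from embryonic stem cells with a deletion of Tfrc, the transferrin receptor gene, of which 3 to 5 had been injected into a wildtype blastocyst. The wildtype cells were the GFP-negative host cells of chimeric kidneys. Kidneys of both groups were taken on embryonic day 15.5, dissociated with collagenase and trypsin and sorted by GFP, and 50 ng of total RNA was amplified per sample. Each group had 2 Affymetrix mouse whole-genome arrays, numbered 1 and 2 in the sample titles as biological replicates. Whether the replicates came from separate embryos or pools, the number of stem cell clones and the promoter of the GFP gene are not given in the sources used here, so p-values measure only the spread between these arrays, which may be technical. No array held GFP-positive cells with intact Tfrc, so the deletion of Tfrc and other ways in which the donor line differed from host cells cannot be told apart.

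Signals are given as intensity, the brightness of a probe set on a linear scale, and differences on the log2 scale as the mean of the labelled Tfrc-null arrays minus the mean of the wildtype arrays. Median intensity lay between 17.5 and 19.3 on the 4 arrays. An array's control level was the highest of 27 probe sets for bacterial transcripts of Bacillus subtilis, between 7.18 and 9.08, and 52 of the 59 members lay above it on all 4 arrays. Tfrc itself read 2509 and 3175 on the arrays labelled Tfrc-null, against 1759 and 2348 on the wildtype arrays (log2 difference 0.47, SE 0.24, limma adjusted p = 0.744). Another Tfrc probe set was also higher without overlap, at 60.8 and 63.1 against 14.5 and 36.9, and the rest overlapped between groups. Among these, the probe set at the 5' end differed by -0.22 but exceeded the control level on 0 arrays. The Tfrc signal was therefore not lower in mean in any probe set above the control level. A probe set outside the deleted part would check nothing. The group is called labelled Tfrc-null throughout, and each direction below rests on that label.

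Of the marker lists, the ureteric bud and collecting duct list was lower in 15 of 16 measured genes, with a summed intensity of 4195 and 4537 on arrays labelled Tfrc-null against 9084 and 9039 on wildtype arrays. The endothelial list was lower in 14 of 14, at 3607 and 2962 against 5200 and 4485. Stromal genes were higher in 13 of 14, at 21546 and 19720 against 16612 and 12923. Erythroid genes were lower in 9 of 9, at 105 and 118 against 1399 and 4173. Of all 18194 genes, 10440 were higher and 7704 lower in mean. The podocyte list read 3928 and 3458 against 4151 and 4093, with 3 genes higher and 4 lower and a median log2 difference of -0.03. The cap mesenchyme list read 4855 and 4845 against 4910.3 and 6063, with 4 genes higher and 8 lower and a median of -0.07. The summed intensities of the other 3 lists overlapped between groups. In the erythroid list Epb42 and Rhag, and in the leukocyte list Itgam, did not exceed the control level on any array. Every measured marker of the ureteric, endothelial and stromal lists exceeded it on at least 1 array. Fewer cells of a type and less RNA per cell cannot be told apart in these sorted bulk samples. These lists are referred to below beside the members they move with.

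**Figure D1:**
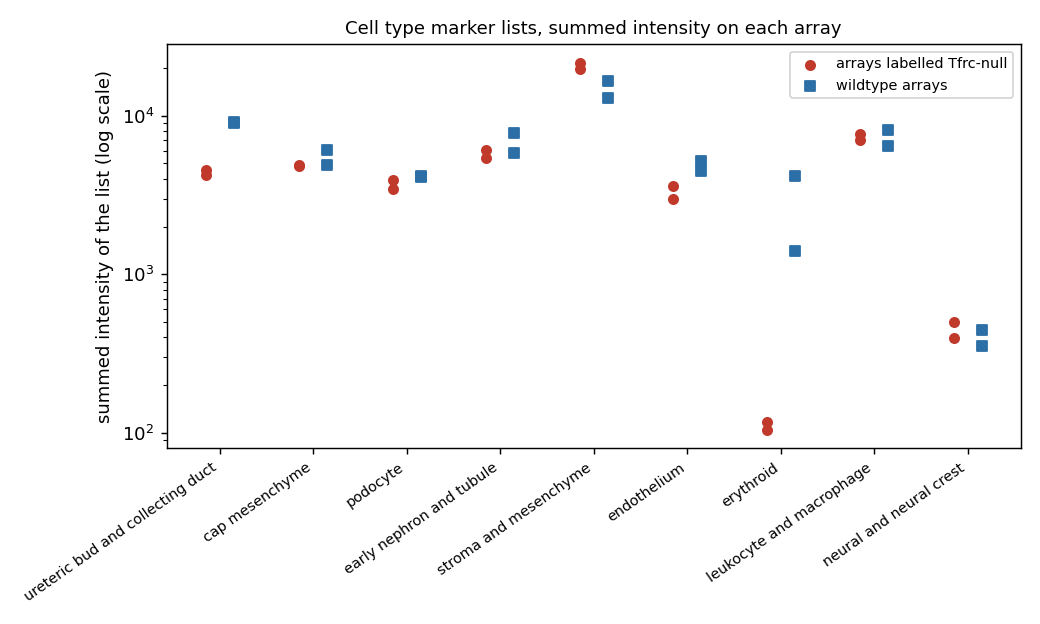
Summed intensity of each cell type marker list on a log axis, with 1 point per array, arrays labelled Tfrc-null as red circles on the left and wildtype arrays as blue squares on the right of each list. The erythroid points lie furthest apart, at 105 and 118 against 1399 and 4173, and the ureteric bud points at 4195 and 4537 against 9084 and 9039.

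Among the guidance genes, the class 3 semaphorins Sema3e, Sema3a and Sema3d and the receptor Epha3 stood higher on the arrays labelled Tfrc-null, and the endothelial genes Efnb2 and Robo4, the Slit receptor Robo2, the ephrin Efna1 and several membrane-bound semaphorins stood lower. Among members above the control level on all 4 arrays the log2 differences ran from -0.82 for Robo4 to 1.40 for Sema3e, Robo2 had only a bound of at least 1.91-fold lower, and 45 of the 59 members differed by less than 0.5. The median difference of the members was 0.01, against 0.04 over all genes, with 30 members higher and 29 lower in mean. Neuropilins, plexins and EphB receptors, which include many of the receptors for these ligands, had differences between -0.43 and 0.19.

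None of these differences passed the test. With limma and Benjamini-Hochberg adjustment over all genes, 0 of 59 members had an adjusted p under 0.05, and the background was 0% of 18194 genes. The lowest adjusted p among the members was 0.212, for Sema3e. At an unadjusted p under 0.05 there were 8 members, 3 higher and 5 lower, or 13.6% of the members against a background of 8.02% of all genes (4.03% higher and 3.98% lower). This count was 5 members (8.47%, against 7.89% of all genes) with each array centred on its median. With the first array labelled Tfrc-null left out it was 4 members (background 4.13%), with the second left out 5 (4.38%), and with wildtype replicate 1 left out 5 (6.88%). Groups that did not overlap, with all arrays of a group on the same side of the other group's, were seen in 24 members, 11 higher and 13 lower. That is 40.7% of the members against a background of 34.9% (20.6% higher and 14.3% lower), a share near the background. A fitted difference of at least 2-fold without overlap was found for 2 members, Sema3e and Robo2, or 3.39% against a background of 2.66% counted the same way. Robo2 was not above the control level on the arrays labelled Tfrc-null and its bound was 1.91-fold, so Sema3e was the 1 member with a measured 2-fold difference. Counts with 1 array left out are given further below, where fewer arrays separate more easily. No share over all genes was counted there beside the counts of at least 2-fold without overlap. An exact permutation test of 2 arrays against 2 cannot give a two-sided p below 0.333.

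**Figure D2:**
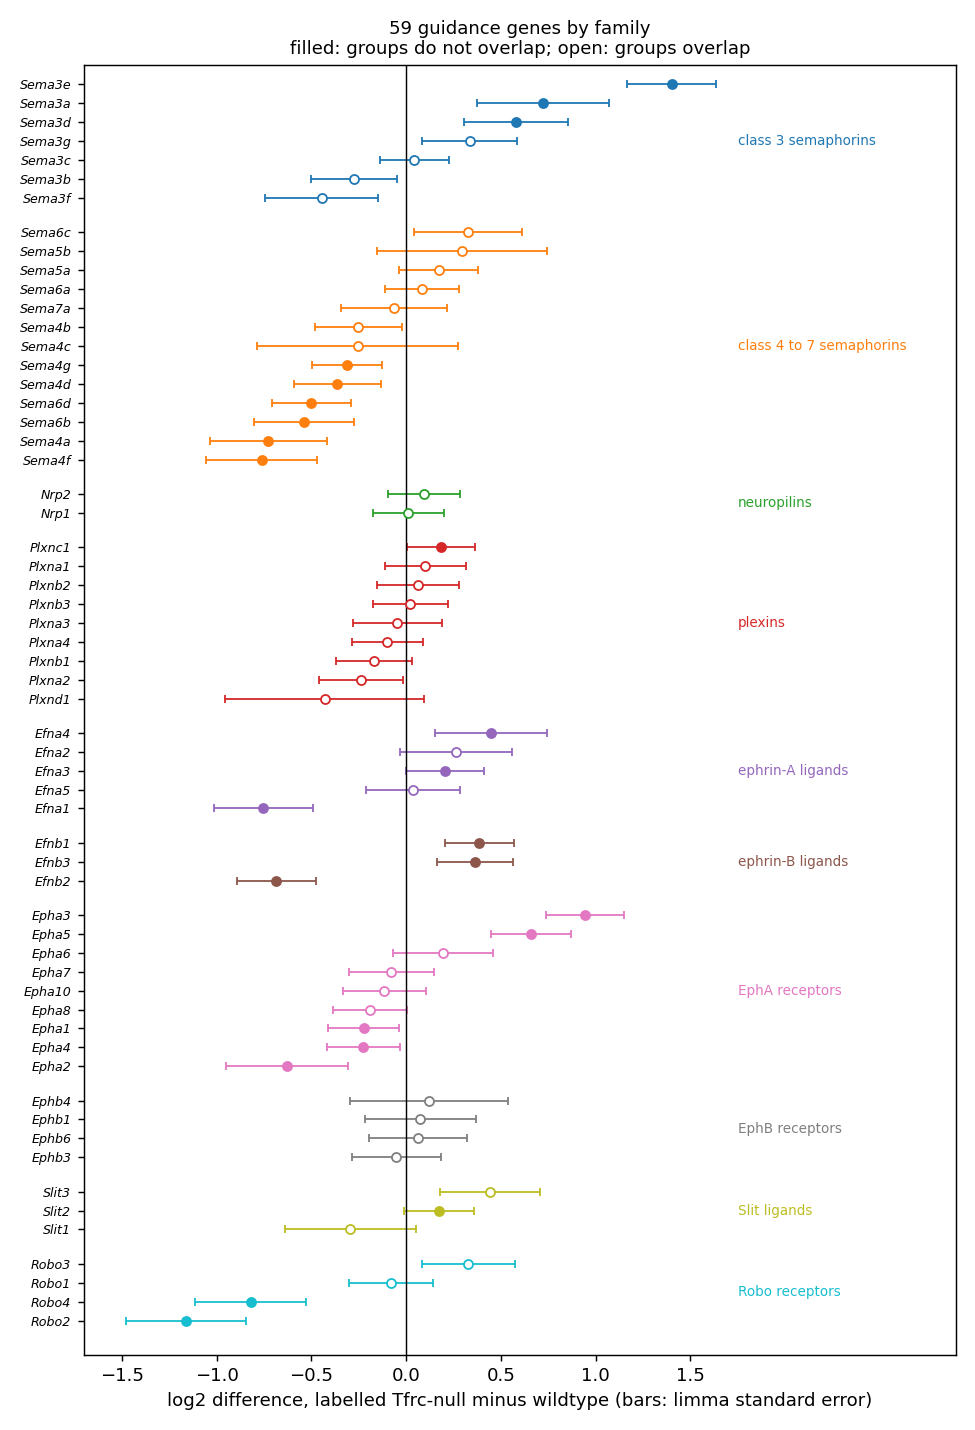
Log2 difference, labelled Tfrc-null minus wildtype, of the 59 guidance genes by family, with bars for the limma standard error over 2 arrays per group. Filled circles are the 24 genes whose groups did not overlap. Sema3e lies highest at 1.40, the lowest point, Robo2, has only a bound of at least 1.91-fold lower, and the neuropilins and EphB receptors lie within 0.12 of 0.

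Of the 7 secreted class 3 semaphorins, 5 were higher in mean, 3 of them without overlap and 0 lower without overlap, with a family median of 0.33. Over all genes 20.6% were higher without overlap, and 1 of the 7, Sema3e, had an unadjusted p under 0.05. Sema3e, which binds plexin D1 without a neuropilin and repels endothelial cells, read 49.6 and 35.6 on the arrays labelled Tfrc-null against 16.8 and 15.1 on wildtype arrays. Both arrays labelled Tfrc-null stood clear of both wildtype arrays, a 2.64-fold difference (log2 difference 1.40, SE 0.24, unadjusted p = 0.00161, limma adjusted p = 0.212). With the 4 probe sets of the gene averaged the log2 difference was 0.57. A second Sema3e probe set read 21.3 and 20.4 against 9.82 and 9.26, also without overlap. Another, at 13.3 and 9.67 against 21.8 and 9.11, overlapped and had the opposite sign, and the remaining one did not lie above the control level on all arrays.

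Sema3a, a repellent of axons and endothelial cells that signals through neuropilin 1 and A-type plexins, read 806 and 871 against 709 and 363. The wildtype arrays differed by more than the groups did, and the log2 difference of 0.72 (SE 0.35, limma adjusted p = 0.716) was 0.24 without wildtype replicate 2. Its other 2 probe sets read 66.2 and 76.5 against 30.6 and 25.1, and 49.8 and 63.4 against 34.1 and 28.8, so all 3 were higher without overlap. Sema3d, which binds neuropilins and plexin D1, read 139.9 and 160.9 against 80.0 and 125.5, a log2 difference of 0.58 (SE 0.27, limma adjusted p = 0.706). It was 0.26 without wildtype replicate 1, the lower of the 2 wildtype arrays.

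The remaining class 3 members overlapped between the groups. Sema3c, a semaphorin of cardiovascular and neural crest development, read 808 and 734 against 759 and 735, a log2 difference of 0.04 (SE 0.18). Sema3g, an endothelial semaphorin, read 102 and 77.0 against 61.3 and 80.9, with the groups interleaved. Sema3b read 59.7 and 78.9 against 89.6 and 77.0, and its second probe set turned the sign, at 0.39 against -0.28. Sema3f, a ligand of neuropilin 2, read 60.8 and 66.5 against 112.8 and 66.5, so wildtype replicate 1 alone stood apart, and one of its other probe sets had a difference of 0.03 where the one used had -0.45.

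In the RefSeq annotation Sema3d, Sema3a, Sema3e and Sema3c follow each other along mouse chromosome 5 in that order, with a few other genes between them. Of the 7 members on chromosome 5, 5 were higher without overlap (Sema3d, Sema3a, Sema3e, Epha5 and Slit2) and 0 lower, while 21.4% of the 1115 other genes of that chromosome were higher and 13.2% lower. A second Slit2 probe set was lower without overlap, at 125 and 121 against 140 and 147. An Epha5 probe set near the control level overlapped with the opposite sign. Dimmer probe sets of both genes had the sign of the one used. On the other chromosomes 6 of 52 members were higher and 13 lower without overlap, against 20.6% and 14.3% of all genes. This grouping was chosen after the values were seen and carries no test. Of the genes between Sema3d and Sema3c that lay above the control level on all 4 arrays, Pclo, a presynaptic scaffold gene next to Sema3e, was lower at 28.3 and 40.5 against 56.3 and 89.1. Cacna2d1, a calcium channel subunit gene, read 882 and 851 against 820.4 and 920 and Speer4f1 read 10.001 and 10.49 against 11.98 and 9.99, both with overlap, so the genes of the stretch did not share 1 direction.

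The promoters of the 3 neighbouring semaphorins that stood higher are shown for comparison, as the 250 bases before the gene start in RefSeq on GRCm38.p6, read 5′ to 3′ on the gene's strand. Capitals mark matches on either strand to the TATA box (TATAAA), the CCAAT box (CCAAT), the GC box (GGGCGG), the E-box (CACGTG), the core of the hypoxia response element (ACGTG, which every E-box match contains) and an ETS motif (CCGGAAG). Of 32851 windows of this length in RefSeq, 12.4% hold TATAAA, 33.8% CCAAT, 32.7% GGGCGG, 6.02% CACGTG, 16.6% ACGTG and 6.91% CCGGAAG. Windows were found for 52 of the 59 members. The 3 are at chr5:12382916-12383165 for Sema3d, chr5:13396534-13396783 for Sema3a and chr5:14025026-14025275 for Sema3e, all on the plus strand.
Sema3d: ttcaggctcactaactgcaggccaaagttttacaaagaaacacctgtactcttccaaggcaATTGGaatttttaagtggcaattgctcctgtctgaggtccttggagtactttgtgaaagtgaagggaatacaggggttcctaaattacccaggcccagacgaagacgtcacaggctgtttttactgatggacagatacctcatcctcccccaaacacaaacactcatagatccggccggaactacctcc
Sema3a: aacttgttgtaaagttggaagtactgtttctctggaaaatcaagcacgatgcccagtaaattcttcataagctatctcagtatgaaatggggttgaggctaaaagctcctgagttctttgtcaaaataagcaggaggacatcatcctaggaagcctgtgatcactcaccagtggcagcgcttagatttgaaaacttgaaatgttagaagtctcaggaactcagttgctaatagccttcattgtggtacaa
Sema3e: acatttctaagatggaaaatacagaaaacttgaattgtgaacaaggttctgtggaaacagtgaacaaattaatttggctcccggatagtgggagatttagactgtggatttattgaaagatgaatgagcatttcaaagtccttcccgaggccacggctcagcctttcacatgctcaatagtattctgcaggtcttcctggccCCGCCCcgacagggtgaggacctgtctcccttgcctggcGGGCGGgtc
The Sema3d window held 1 match to CCAAT, the Sema3e window 2 to GGGCGG and the Sema3a window 0 to any of the 6 motifs. They had 4, 2 and 7 CpG dinucleotides in the order shown, against a median of 6 over all windows, so no motif searched for was common to the 3.

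Membrane-bound and GPI-anchored semaphorins of classes 4 to 7 had 9 of 13 members lower in mean, 6 of them without overlap, and 0 higher without overlap. Over all genes 14.3% were lower and 20.6% higher without overlap. The family median was -0.26, and 1 of the 13, Sema4f, had an unadjusted p under 0.05. Sema4f, a membrane semaphorin of neurons, read 18.9 and 12.7 against 31.4 and 22.1 (log2 difference -0.76, SE 0.29, unadjusted p = 0.0463, limma adjusted p = 0.609). Its other probe set, near the control level, read 8.04 and 8.04 against 7.73 and 9.29. Sema4a, known from immune cells and vessels, read 95.8 and 58.9 against 144 and 107 (log2 difference -0.73, SE 0.31, limma adjusted p = 0.655), and its second probe set was also lower without overlap, at 30.0 and 17.3 against 44.9 and 42.4.

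Sema6d, a ligand of plexin A1, read 200.2 and 162 against 269.7 and 240.1 (log2 difference -0.50, SE 0.21, limma adjusted p = 0.643). A second probe set differed by -0.51, at 9.55 and 7.88 against 14.4 and 10.6. The remaining Sema6d probe sets, not above the control level on all arrays, had the opposite sign, at 0.38 and 0.04. With the 4 probe sets of Sema6d averaged the log2 difference was -0.15. Sema6b, a ligand of A-type plexins, read 43.8 and 33.0 against 65.5 and 46.6, a log2 difference of -0.54 (SE 0.26). In Sema4a, Sema4f and Sema6b the array numbered 1 exceeded the array numbered 2 in both groups, and the group difference was seen within each number. Without the second array labelled Tfrc-null the log2 difference was -0.48 for Sema4f and -0.38 for Sema4a, and without wildtype replicate 1 it was -0.29 for Sema6b. Sema4d, the ligand of plexin B1, read 947 and 701 against 1117 and 984 (log2 difference -0.36), and Sema4g read 247 and 249.8 against 328 and 291 (-0.31). Both were lower without overlap.

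The other 7 of these semaphorins overlapped between groups, with log2 differences between -0.26 and 0.33. Sema6c read 24.4 and 25.4 against 15.5 and 25.4, so wildtype replicate 1 alone stood apart in the difference of 0.33, and 1 of its other probe sets read -0.05. Sema6a read 124 and 131 against 109.8 and 132, and both its other probe sets had the opposite sign, at -0.18 and -0.08. Sema4b, Sema4c, Sema5a, Sema5b and Sema7a had differences of -0.25, -0.26, 0.17, 0.29 and -0.06. A second Sema5a probe set read 127 and 148 against 72.1 and 99.7, higher without overlap by 0.69.

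The semaphorin receptors showed little difference. Nrp1, the co-receptor of Sema3a and of VEGF-A, read 1713 and 1524 against 1549 and 1656, a log2 difference of 0.01 (SE 0.19). Its 3 other probe sets differed by -0.03, -0.18 and -0.92, the last from a dim signal of 10.7 and 11.8 against 23.8 and 19.1. Nrp2, the co-receptor of Sema3f, read 397 and 375 against 390.2 and 334 (0.09), with other probe sets at -0.27, -0.62 and 0.65. The neuropilin probe sets thus disagreed in sign, and no direction is given for these genes.

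Of the 9 plexins, 1 was separated between the groups, beside 34.9% of all genes. The separated plexin was Plxnc1, the receptor of Sema7a, at 61.9 and 65.6 against 56.6 and 55.5 (log2 difference 0.19, SE 0.18). A second Plxnc1 probe set had -0.08. Plxnd1, the receptor of Sema3e and mainly an endothelial plexin in the embryo, read 130.1 and 80.0 against 227 and 83.3. Its log2 difference of -0.43 had an SE of 0.53, since the arrays numbered 1 and 2 differed more than the groups did. Plxnb2, a receptor of class 4 semaphorins, read 585 and 519.6 against 465 and 600.2 (0.06). The remaining A- and B-type plexins lay between -0.24 and 0.10, with Plxnb3 above the control level on 0 arrays and Plxna4 on 1.

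**Figure D3:**
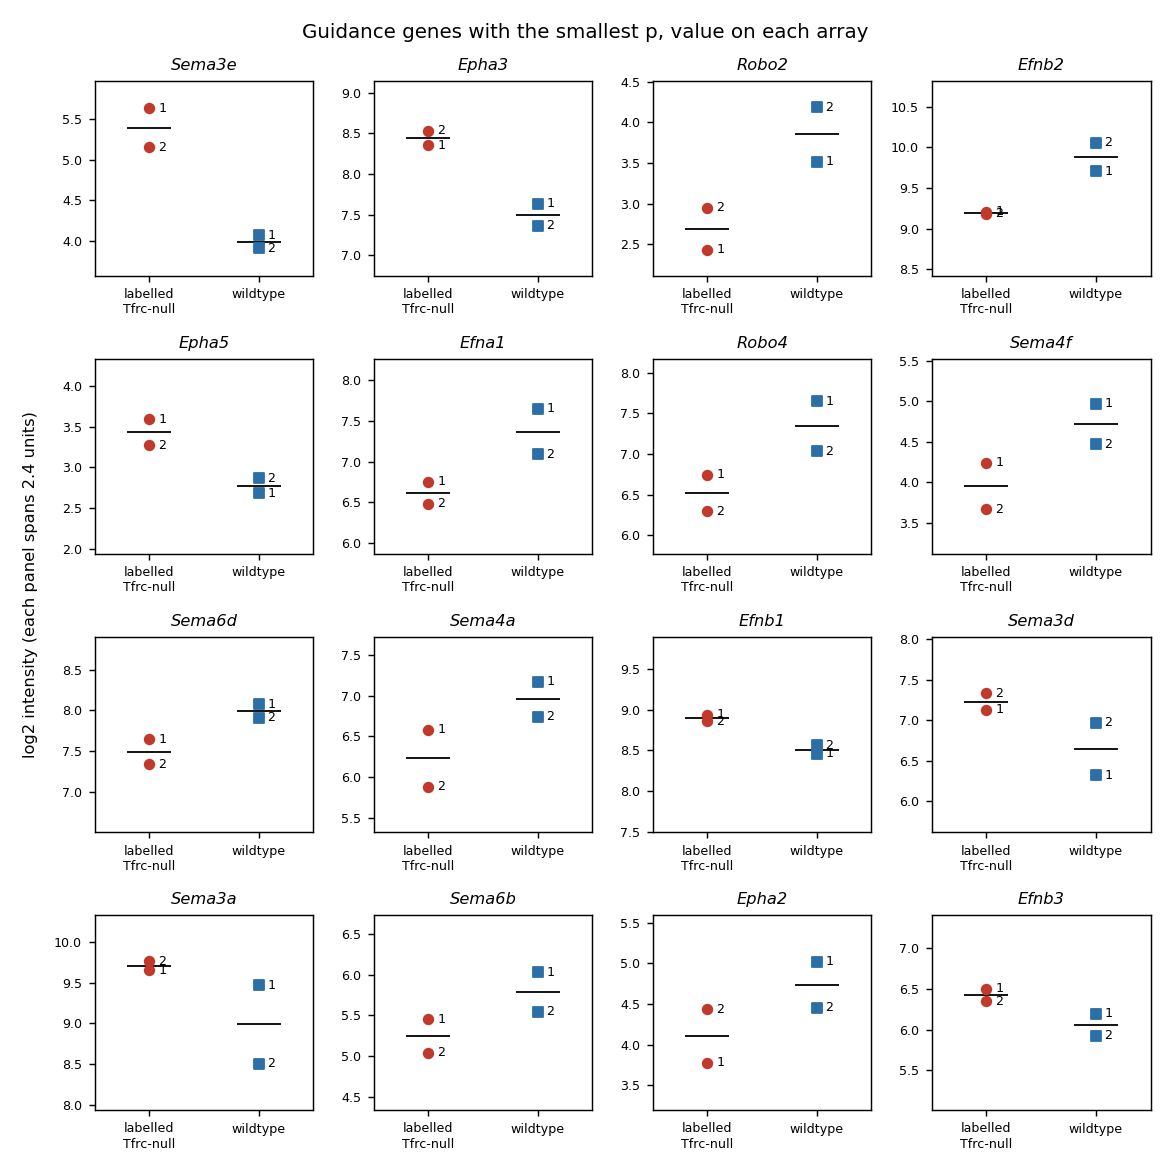
Log2 intensity on each array for the 16 guidance genes with the smallest p, arrays labelled Tfrc-null as red circles on the left and wildtype arrays as blue squares on the right. Digits give the array's number, horizontal lines are group means, and each panel has its own origin but the same span. In these 16 genes the groups do not overlap, with Sema3e at 49.6 and 35.6 against 16.8 and 15.1 and Efnb2 at 592 and 581 against 836 and 1063 in intensity.

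Ephrin ligands split by member. Efnb2, a ligand of EphB4 that marks arterial endothelium, read 592 and 581 on arrays labelled Tfrc-null against 836 and 1063 on wildtype arrays. It was 1.61-fold lower (log2 difference -0.68, SE 0.21, unadjusted p = 0.0197, limma adjusted p = 0.473). Of the further Efnb2 probe sets, 1 read 16.7 and 15.2 against 22.9 and 21.9 and 1 read 309 and 330.1 against 307 and 564, where the groups overlapped. Efna1, a ligand of EphA2 found on endothelium, read 108 and 89.3 against 201 and 136, a log2 difference of -0.75 (SE 0.26, unadjusted p = 0.0323, limma adjusted p = 0.541). Its second probe set differed by -0.04.

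The other ephrins were level or higher. Efnb1, an X-linked ephrin of mesenchyme and neural crest, read 490.4 and 463 against 351 and 378 (log2 difference 0.39, SE 0.18, limma adjusted p = 0.704). Its other probe sets had 0.15 and -0.09, so the size was not shared. Efnb3, an ephrin of the neural midline, read 90.6 and 81.5 against 73.4 and 60.7, a log2 difference of 0.36 (SE 0.20). Efna4 read 43.6 and 25.6 against 24.7 and 24.3, with 1 array labelled Tfrc-null apart from the other 3. Efna3, at 35.9 and 36.7 against 35.5 and 27.9, was likewise separated only narrowly. Efna2 read 777 and 642 against 756 and 458 and Efna5 read 342 and 304 against 261 and 379.7, both with overlap.

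Among the 9 EphA receptors, Epha3 and Epha5 were higher and Epha2, Epha1 and Epha4 lower without overlap on the probe sets used. Over all genes 20.6% were higher and 14.3% lower without overlap. Epha3, a receptor of A-type ephrins found in embryonic mesenchyme, read 327 and 370.2 against 199 and 164, a 1.92-fold difference (log2 difference 0.94, SE 0.20, unadjusted p = 0.005, limma adjusted p = 0.304). A second Epha3 probe set read 113 and 167 against 39.8 and 61.6, a log2 difference of 1.47, also without overlap, and with all 4 probe sets averaged the difference was 0.59. Both probe sets were higher on both arrays labelled Tfrc-null. The stromal marker list was higher as well, with 10 of 14 genes higher without overlap, against 20.6% of all genes. The part of this list in the Epha3 and semaphorin values was not tested.

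Epha5, mostly known from neurons, read 12.05 and 9.65 against 6.41 and 7.28. Both wildtype arrays lay at or below their control level, so the level was at least 1.34-fold higher on the arrays labelled Tfrc-null (unadjusted p = 0.0241, limma adjusted p = 0.505). This bound sets the bright group's mean log2 against the control level, or the probe set's own value where that was higher. Another Epha5 probe set, near the control level, read 8.73 and 7.52 against 10.95 and 7.32, with overlap and the opposite sign. Dimmer Epha5 probe sets had the sign of the one used, at 0.58 and 0.36. They exceeded the control level on 1 and 0 arrays, so the direction rests on signals near the control level. Epha2, an epithelial receptor of Efna1, read 13.7 and 21.6 against 32.4 and 21.8, a log2 difference of -0.63 (SE 0.32). The arrays numbered 2 differed by -0.01 and those numbered 1 by -1.25, so the difference lay in the arrays numbered 1. The ureteric bud list was lower within both numbers, and its part in the Epha2 value was not tested.

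Epha4, a receptor that binds both ephrin classes, read 661 and 777 against 817 and 858 (log2 difference -0.23), and 3 further probe sets had 0.08, 0.00 and 0.39. Epha1 read 14.8 and 16.2 against 19.2 and 17.1 (-0.22), with a second probe set at 0.46, and Epha7 read 247 and 237 against 298 and 218 (-0.08), with a second at 0.36. The direction of these receptors depended on the probe set. Epha10 differed by -0.11, and Epha6 and Epha8 were above the control level on only 1 array each, so no fold is given. All 4 EphB receptors overlapped, with differences from -0.05 for Ephb3 to 0.12 for Ephb4, the receptor of Efnb2 on venous endothelium. Over all genes 34.9% did not overlap. Ephb4 read 175 and 114 against 188 and 90.3, again with the array numbered 1 higher in both groups.

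Among Slit ligands and Robo receptors, Slit2 was higher and Robo2 and Robo4 were lower without overlap, and the others overlapped. Slit2, the ligand that limits budding of the ureter in the mouse, read 2215 and 2388 against 2145 and 1941, a log2 difference of 0.17 (SE 0.19), and a second, dimmer probe set had -0.22. Slit3 read 41.6 and 58.0 against 41.8 and 31.2 (0.44) and Slit1 read 38.5 and 24.2 against 47.8 and 29.3 (-0.29), both with overlap. Robo1, a receptor of Slit2, read 1188 and 1172 against 1072 and 1451 (-0.08, SE 0.22). The Slit2 groups did not overlap but differed by less than the standard error, and those of Robo1 overlapped.

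Robo2, the Slit2 receptor that restricts Gdnf and with it the site of budding, read 5.41 and 7.74 against 11.4 and 18.3 on its only probe set. Neither array labelled Tfrc-null exceeded its control level, so the level was at least 1.91-fold lower (unadjusted p = 0.0132, limma adjusted p = 0.416). Robo4, an endothelial Robo that stabilises vessels, read 107 and 78.5 against 201 and 131, a 1.77-fold lower level (log2 difference -0.82, SE 0.29, unadjusted p = 0.0364, limma adjusted p = 0.555). Robo3 read 10.4 and 15.1 against 10.4 and 9.59 and overlapped. The endothelial list was lower in all 14 genes, 9 of them without overlap against 14.3% of all genes, beside Robo4, Efnb2 and Efna1. The part of the list in the values of these members was not tested. Sema3g (log2 difference 0.33), Ephb4 (0.12) and Plxnd1 (-0.43), also named above for endothelium, overlapped between groups.

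The promoters of Robo4 and Efnb2, which are among the lower members named above for endothelium, are shown in the same way. Efna1, also lower and found on endothelium, is not shown. The windows are chr9:37401722-37401971 on the plus strand and chr8:8661243-8661492 on the minus strand of GRCm38.p6. Matches to the motifs listed above are in capitals.
Robo4: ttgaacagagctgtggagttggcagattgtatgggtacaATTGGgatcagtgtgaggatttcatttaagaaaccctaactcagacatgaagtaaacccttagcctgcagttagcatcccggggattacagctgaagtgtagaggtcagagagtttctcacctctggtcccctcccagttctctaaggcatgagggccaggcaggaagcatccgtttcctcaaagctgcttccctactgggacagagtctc
Efnb2: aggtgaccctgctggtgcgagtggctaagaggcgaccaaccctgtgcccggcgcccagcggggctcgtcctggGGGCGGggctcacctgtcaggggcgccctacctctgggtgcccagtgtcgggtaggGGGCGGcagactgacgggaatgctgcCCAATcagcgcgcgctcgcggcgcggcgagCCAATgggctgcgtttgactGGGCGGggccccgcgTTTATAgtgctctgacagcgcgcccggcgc
The Robo4 window had 49.6% G and C and 2 CpG dinucleotides, with 1 match to CCAAT, and the Efnb2 window 72% and 27, with 1 match to TATAAA, 2 to CCAAT and 3 to GGGCGG. Of the 6 motifs, the CCAAT box was the one found in both.

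Probe sets of a gene did not always agree. Of the members, 40 had more than 1 probe set, and 44 probe sets beside those used exceeded the control level on every array. Of these, 23 had the sign of the probe set used and 21 the opposite sign. Among the 16 genes with the smallest p, it was 11 of 13 with the same sign. The exceptions were 1 probe set of Sema3e and 1 of Efnb1. The probe set used was picked by signal, so the brightest one carries the value of each gene.

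**Figure D4:**
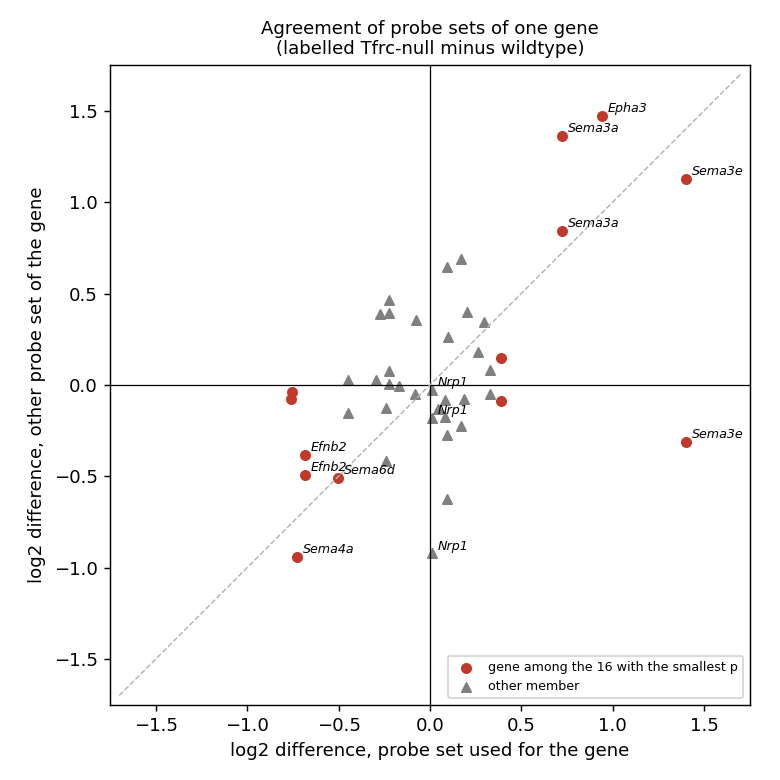
Log2 difference, labelled Tfrc-null minus wildtype, of the 44 further probe sets that exceeded the control level on every array against that of the probe set used for the same gene, with red circles for the 16 genes with the smallest p, grey triangles for other members and a dashed line of equality. The probe sets of Epha3 and Sema3a and 1 of Sema3e lie high on both axes, and 21 of the 44 points have opposite signs.

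Further guidance genes outside these families were counted from 2 lists. Of 21 other guidance receptors and ligands, 0 passed an adjusted p of 0.05 with limma, and the list median was 0.05 against 0.04 over all genes. At an unadjusted p under 0.05, 1 was higher and 1 lower, beside 4.03% and 3.98% of all genes. The lower one was L1cam, an adhesion molecule of axons and of ureteric epithelium, at 69.9 and 66.4 against 156 and 126 (log2 difference -1.04, SE 0.20, limma adjusted p = 0.253). The higher one was Ntng1, a membrane-anchored netrin, at 65.4 and 75.5 against 39.7 and 36.8 (0.88, SE 0.19, limma adjusted p = 0.308). Ntn1, the ligand of Dcc and Unc5 receptors, had 0.42 and the BMP co-receptor gene Rgmb had -0.45.

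Among 33 intracellular effectors of guidance receptors, 0 passed an adjusted p of 0.05 with limma, and the median was 0.07. At an unadjusted p under 0.05, 1 was higher and 1 lower, beside 4.03% and 3.98% of all genes. Mical1, an enzyme that oxidises actin downstream of plexins, read 300.1 and 293 against 168 and 169.8 (log2 difference 0.81, SE 0.18, limma adjusted p = 0.308). Vav3, a guanine nucleotide exchange factor downstream of Eph receptors, read 147 and 141 against 216 and 223 (-0.61, SE 0.18, limma adjusted p = 0.462). Both had arrays of a group closer to each other than to the other group. Crmp1, a mediator of Sema3a signals, and Ngef, an exchange factor bound to EphA receptors, had -0.44 and -0.37.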

How the data were processed

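RNA of sorted kidney cells was measured on 4 arrays. The authors deposited linear intensity values, 1 per probe set, and per the submitters' processing notes used RMA. No version, setting or step back from log2 is given in the sources used here. RMA commonly equalises array distributions, which removes shifts common to most genes. The deposited medians still differed, at 17.5 and 18.8 on arrays labelled Tfrc-null and 17.9 and 19.3 on wildtype arrays.

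The log2 of each intensity was used without normalizing again. Of 45101 probe sets, 34958 had 1 gene symbol in the platform annotation, 932 several and 9211 none, and the last 2 kinds were left out. For 18194 genes limma 3.58.1 (lmFit, eBayes; R 4.3.3) gave the test, adjusted by Benjamini-Hochberg over all genes at 0.05, without filter or block. The code was tested on simulated data. RefSeq held all 59 members by Entrez identifier.

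Values on all arrays are given for the 16 members with the smallest p, the brightest of each family and members with a probe set of opposite sign, and other members were added after their values were seen. Of the other guidance lists, up to 4 genes with the smallest p are named. Members and lists were chosen with earlier results of these data known. Alternatives were the replicate number as a block, each array left out, the mean of all probe sets, a filter at the control level, median centring, quantile normalization, an offset of 16 and an intensity trend.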

Additional observations from a re-analysis of the deposited data

How the results depend on the processing

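Each result was recomputed under 11 alternatives. In all of them 0 members had an adjusted p under 0.05, and the lowest adjusted p of any named member was 0.118. Over all genes the number passing was 2 with the replicate number as a block, 2 with median-centred arrays, 2 with an intensity trend and 1 with a gene's probe sets averaged, against 0. Members with an unadjusted p under 0.05 numbered 5 with median-centred arrays, 12 with the block (20.3%, against 14.8% of all genes) and 4 to 11 with 1 array left out (6.78% to 18.6%, against 4.13% to 10.5%), where the main count was 8. Members without overlap numbered 37 to 47 with 1 array left out, where fewer arrays separate more easily, against 24. These are 62.7% to 79.7% of the members, near the 64.1% to 71.5% of all genes. Those of at least 2-fold without overlap numbered 1 with probe sets averaged, 0 with an offset of 16 and 2 to 5 with 1 array left out, against 2. Leaving out labelled Tfrc-null replicate 1 gave 4 members with an unadjusted p under 0.05 and 5 of at least 2-fold. It was 5 and 2 without labelled Tfrc-null replicate 2, 5 and 4 without wildtype replicate 1, and 11 and 5 without wildtype replicate 2. The share of all genes with at least 2-fold and no overlap was not counted in the alternatives, so these 2-fold counts have no background. The median difference of the members lay between -0.10 and 0.06 in all alternatives.

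The 16 members with the smallest p have groups that do not overlap, so most alternatives could not turn their direction, and it is not counted as a sign of stability. The other 18 named members turned in 23 of 198 values. Averaging a gene's probe sets, these were Sema3c (-0.044), Epha4 (0.033), Nrp1 (-0.28), Robo1 (0.17), Epha1 (0.17), Epha7 (0.34), Nrp2 (-0.039) and Sema6a (-0.058). With 1 array left out the ranges were -0.025 to 0.11 for Sema3c, -0.41 to 0.65 for Ephb4, -0.071 to 0.097 for Nrp1, -0.12 to 0.24 for Plxnb2, -0.65 to 0.060 for Slit1, -0.30 to 0.15 for Epha7, -0.048 to 0.22 for Sema6a, -0.031 to 0.69 for Sema6c, -0.099 to 0.62 for Efna2, -0.30 to 0.14 for Robo1 and -0.017 to 0.21 for Nrp2. The cause of these turns was not tested. Same-numbered arrays deviated together from their group means (correlation 0.512 across genes, which are not independent replicates). More genes parted by number (46.6%) than by group (34.9%). The sample titles link these arrays by number only and there were 2 pairs, so the block is given here as an alternative. The main test leaves this pairing out. Where 1 array was left out, the lone array of a group was assumed to vary like the other group. The 4 arrays limit the precision, and members near the control level have only bounds.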

Other observations

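In 21 of the 59 members, or 35.6%, the arrays parted by replicate number instead of by group, with both arrays numbered 1 above both numbered 2 in 16 members and the reverse in 5. Over all genes the share was 46.6%. Among the 16 were Plxnd1, Ephb4, Ephb1, Ephb3, Plxna3, Sema4b and Sema4c, the last a ligand of plexin B2 that read 223 and 107 on the arrays labelled Tfrc-null against 281 and 121 on the wildtype arrays. Sema5b, Sema6a, Sema6c, Sema7a and Plxna1 were the 5 with the arrays numbered 2 above. The BioB hybridization control read 5780 and 4068 against 5350 and 3760, and beta-actin, a measure of RNA integrity, had a 3' over 5' ratio of 5.89 and 7.21 against 5.51 and 6.49, so both also parted by number. Their part in the members' values was not tested.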
